A study of Mus musculus with 8 samples.

Results

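The prostaglandin and leukotriene synthesis enzymes are the 10 genes Pla2g4a, Alox5, Alox5ap, Ltc4s, Ptgs1, Ptgs2, Hpgds, Ptges, Tbxas1 and Hpgd, chosen by name from the 35199 genes of the count table. All 10 were found with a count, and 9 passed the filter on low counts, which left 12849 genes to test and removed Ptges. They were measured in tuft cells, sorted from the jejunum of mice that carry Dclk1-DTR-ZSgreen, a bacterial artificial chromosome transgene in which Dclk1 regulatory sequence drives the diphtheria toxin receptor and the green reporter ZSgreen. Mice were made from CBA × C57BL/6J oocytes and backcrossed to C57BL/6J, both sexes were used in the study, and pumps were implanted at 8 to 10 weeks of age. In the scopolamine group (4 mice) an osmotic pump gave 0.5 mg per kg per day of scopolamine, a nonselective antagonist of muscarinic acetylcholine receptors, for 7 days, and in the sham group (4 mice) sodium chloride replaced it. The study asked whether muscarinic blockade gives tuft cells a different phenotype. Each library came from 1 mouse, and replicates are numbered 1 to 4 within each group. Cells negative for the reporter were not analysed here, so the values are levels within sorted cells and not enrichment over other cells.

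Eicosanoids are signalling lipids made from arachidonic acid, which cytosolic phospholipase A2 (Pla2g4a) releases from membranes. Through 5-lipoxygenase (Alox5), its activating protein FLAP (Alox5ap) and leukotriene C4 synthase (Ltc4s) the acid becomes leukotriene C4, the parent of the cysteinyl leukotrienes. Through the cyclooxygenases (Ptgs1, Ptgs2) it becomes prostaglandin H2, from which Hpgds makes prostaglandin D2, Ptges prostaglandin E2 and Tbxas1 thromboxane A2, and Hpgd (15-hydroxyprostaglandin dehydrogenase) starts the breakdown of prostaglandins. Intestinal tuft cells are known to express this machinery and to release cysteinyl leukotrienes and prostaglandin D2 during immune responses to parasites.

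In these tuft cells the genes of the leukotriene C4 route and Ptgs1 were among the most abundant transcripts, while Ptgs2, Tbxas1 and Ptges were scarce. No member differed between scopolamine and sham past the threshold. The member furthest from sham relative to its spread was Hpgds, at 211 ± 60.5 (SD, n = 4) CPM in treated mice against 313 ± 22.7 CPM (SD, n = 4) in sham, and its adjusted p was 0.812 in edgeR. Levels are in CPM, each library's estimated counts scaled to a common total after adjusting it by TMM (trimmed mean of M values), and log2 fold changes are scopolamine over sham, given with their standard error (SE).

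Total counts ran from 14343362 to 20857433 with scopolamine and from 25769940 to 41428916 in sham, and 3 counts, used as the floor of detection, equal 0.0729 to 0.212 CPM. All sham libraries were deeper than all scopolamine libraries, and the effects of depth and of treatment cannot be told apart. Sham replicates 1 and 3 were amplified from 200 pg of RNA in 15 cycles and the other 6 libraries from 1000 pg in 10 cycles. All 15 tuft cell markers listed for this check passed the filter, Dclk1 and Trpm5 included, 3 with a positive and 12 with a negative log2 fold change (0 at an unadjusted p under 0.05), and their summed level was 12337 to 21758 CPM with scopolamine and 15324 to 18346 CPM in sham. Scopolamine replicates 2 and 4 had the lowest tuft marker sums, 13220.3 and 12337 CPM. In bulk libraries, fewer tuft cells in the sort and less RNA per tuft cell cannot be told apart.

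The promoters of the cyclooxygenase genes are shown because these genes stood far apart in level in the same cells, and a stretch upstream of Hpgds because it holds the motif that POU factors bind and Hpgds is the member whose groups did not overlap. The sequences are RefSeq's on GRCm38.p6, whose table matched 9 of the 10 members and held no entry for Alox5ap. The Ptgs1 sequence is chr2:36230176-36230425 (plus strand) and the Ptgs2 sequence chr1:150099781-150100030 (plus strand), each the 250 bases before the start site, with capitals for a GC box (GGGCGG). The stretch of Hpgds is chr6:65144887-65144914 (minus strand), with capitals for the octamer ATGCAAAT, and the second stretch of Ptgs2 is chr1:150100034-150100061 (plus strand), just past its start, with capitals for a short form of the cyclic AMP response element (CRE, searched as CGTCA) that overlaps an E-box, searched as CACGTG.
Ptgs1: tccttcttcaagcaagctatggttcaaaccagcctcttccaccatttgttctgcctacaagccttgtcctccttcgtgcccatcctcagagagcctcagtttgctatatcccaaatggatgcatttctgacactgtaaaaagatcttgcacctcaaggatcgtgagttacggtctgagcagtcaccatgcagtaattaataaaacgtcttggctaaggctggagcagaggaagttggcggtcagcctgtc
Ptgs2: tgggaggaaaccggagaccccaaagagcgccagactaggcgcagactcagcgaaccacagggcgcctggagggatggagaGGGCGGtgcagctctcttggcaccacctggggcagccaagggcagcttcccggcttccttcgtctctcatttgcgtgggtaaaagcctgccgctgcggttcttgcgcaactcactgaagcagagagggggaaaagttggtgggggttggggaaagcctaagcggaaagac
Hpgds: tttactctttATGCAAATacgttggact
Ptgs2, past the start: gtcaccactaCGTCACGTGgagtccgct

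The Ptgs1 sequence is 48.0% G and C and that of Ptgs2 61.6%. The motifs searched, on both strands and with the letters given, were the octamer, the TATA box (TATAAA), the E-box, the CRE and the GC box, and the last 3 of these, of which the E-box and the CRE can overlap, were added after the values had been seen. Of 32851 RefSeq promoters of 300 bases (250 before and 50 after the start), the octamer was in 1.74%, the TATA box in 13.6%, the E-box in 7.15%, the CRE in 20.8% and the GC box in 35.7%. Among the 9 members with a promoter, the octamer was in that of Hpgds alone, 174 bases before the RefSeq start, and none of the 5 motifs was in that of Ptgs1. The start of Hpgds in GENCODE lies 178 bases further upstream than in RefSeq, so the octamer lies inside the first exon by GENCODE and before the gene by RefSeq. The TATA box letters were in the promoters of Pla2g4a, Tbxas1 and Hpgd, and those of the GC box in the promoters of Ptgs2, Ptges, Alox5 and Hpgd. These matches describe letters, and binding was not measured.

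The order of abundance can be compared between genes only per length of transcript. By the median length of each gene's transcripts in GENCODE, the mean level over the 8 libraries was 3096 CPM per kb for Alox5ap, 1977 for Ltc4s, 855 for Ptgs1 and 663 for Alox5. These were among the first 225 of the 21647 genes that have a count and a length, with Alox5ap at rank 32. The middle of the order was 95.3 CPM per kb for Pla2g4a, 75.5 for Hpgds and 36.9 for Hpgd. At the bottom stood Ptgs2 with 1.999 CPM per kb, Tbxas1 with 0.865 and Ptges with 0.508. The libraries of Ltc4s did not overlap with those of Ptgs1, nor those of Alox5 with Pla2g4a or those of Hpgd with Ptgs2. All other neighbours in the order overlapped over the 8 libraries. Of these, Alox5ap lay above Ltc4s and Ptgs1 above Alox5 within each of the 8 libraries. The rest kept their order in 5 to 7 libraries. With the longest transcript in place of the median, 4 of the 10 kept their place, Ltc4s came first with 1717 CPM per kb and Ptgs1 stood at 208, below Alox5 at 338. The steps from the 4 abundant genes to the middle 3 and from these to the scarce 3 held with either length.

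**Figure D1:**
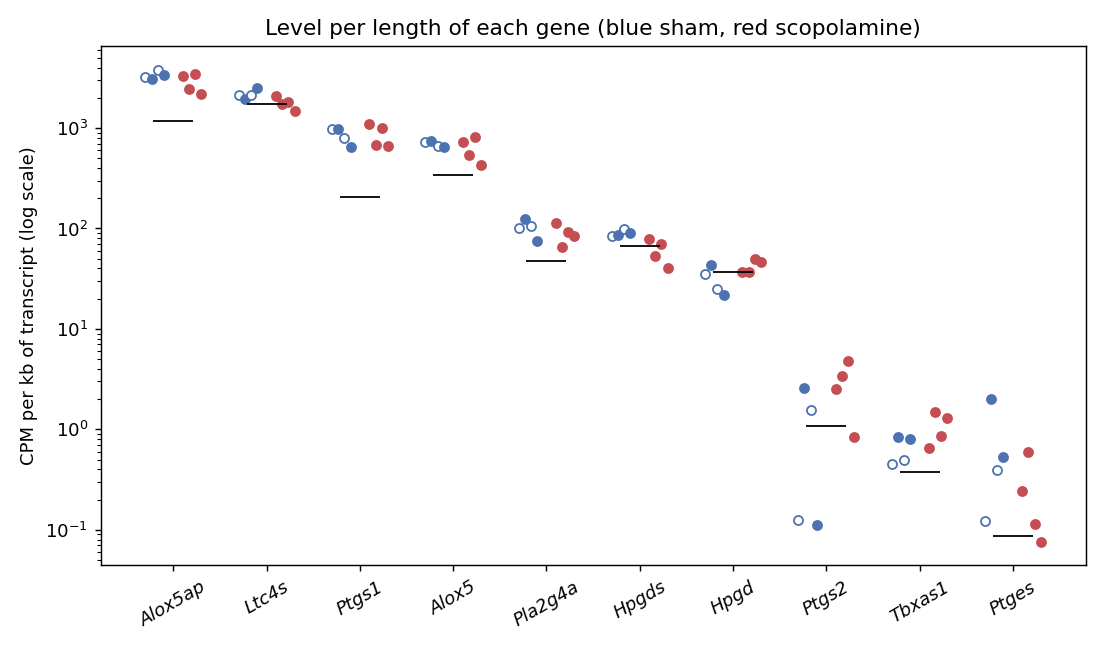
Level per kb of transcript (log axis) of each gene in the 8 libraries, by median transcript length, with sham in blue, scopolamine in red and the 2 sham libraries from 200 pg as open circles. Black bars are the mean level with the longest transcript. Alox5ap, Ltc4s, Ptgs1 and Alox5 lie far above Ptgs2, Tbxas1 and Ptges in every library.

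Together the 10 genes took 0.361% to 0.540% of all counts with scopolamine and 0.501% to 0.553% in sham. Alox5, Alox5ap and Ltc4s made up 76.1% to 79.3% of these member counts with scopolamine and 76.0% to 82.3% in sham, so the leukotriene C4 route held most of these counts in every mouse.

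Whether scopolamine changed the level of these enzymes was tested with edgeR over all 12849 genes, with a Benjamini-Hochberg adjusted p under 0.1 as the threshold. Of the 9 members tested 0 passed, and of all genes tested 0% passed (0 genes, with a smallest adjusted p of 0.439). With limma-voom 0 members passed, and with DESeq2 again 0, against 1.31% of the 14462 genes DESeq2 tested. At an unadjusted p under 0.05, 1 member was lower (Hpgds) and 0 were higher, where 2.66% of all genes tested were lower and 3.33% higher. Every scopolamine library lay below every sham library for 1 member, again Hpgds, and above for 0, where 1.96% of all genes tested lay below and 1.92% above. By direction alone 4 of the 9 had a positive log2 fold change and 5 a negative one, with a median of -0.15 beside -0.011 over all genes tested.

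**Figure D2:**
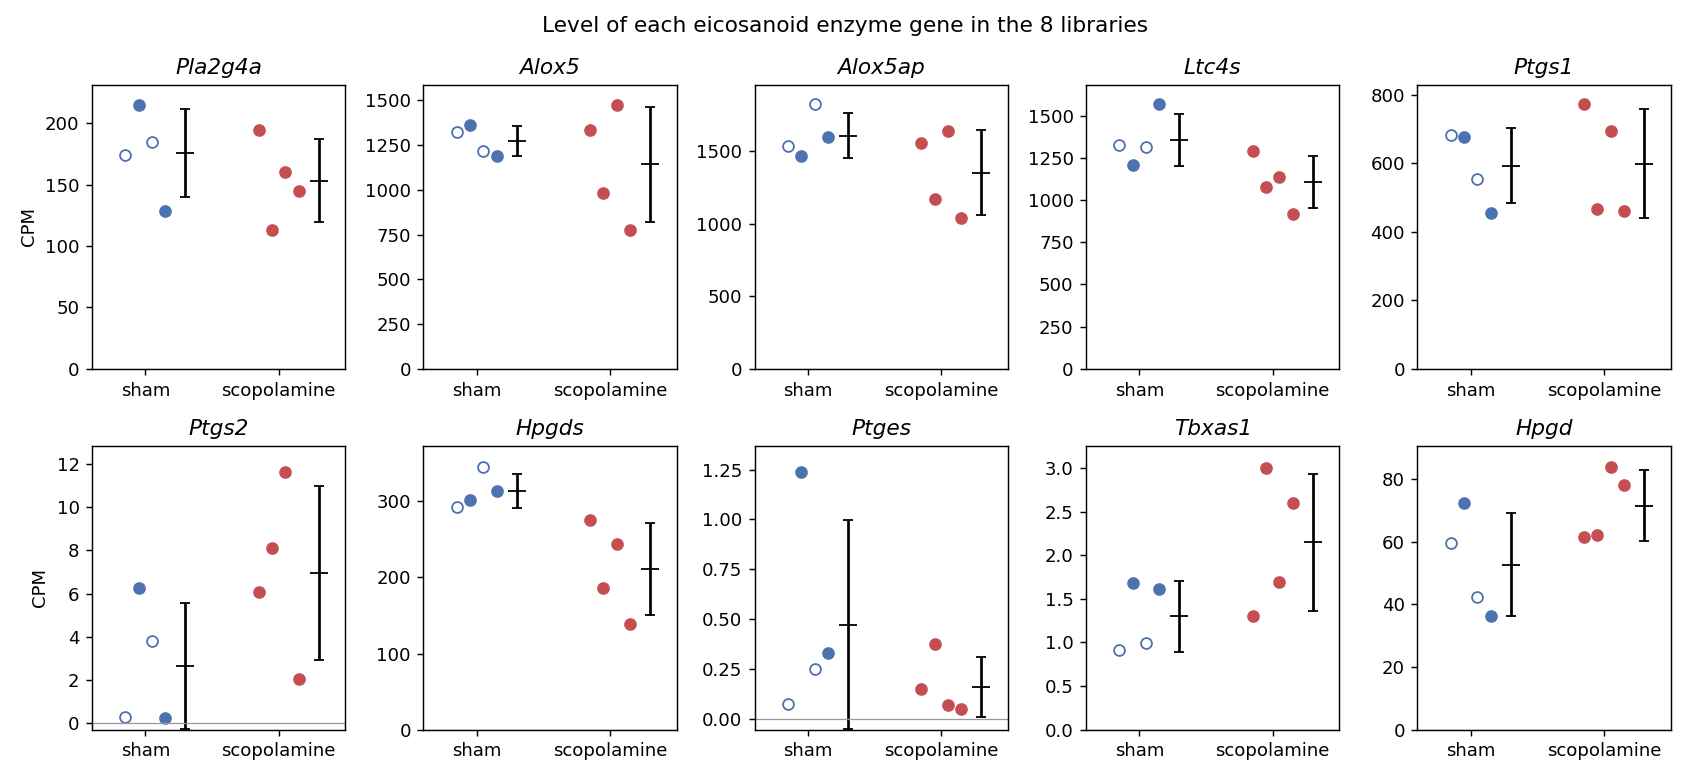
CPM of each enzyme gene in each library (circles, open for the 2 sham libraries from 200 pg), with the mean and SD of each group in black and axes that include 0. The groups overlap for every gene except Hpgds, whose scopolamine libraries reach at most 276 CPM and whose sham libraries start at 293 CPM.

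Pla2g4a (chromosome 1 from 149829618 to 149961290, minus strand, GRCm38), which releases arachidonic acid, had 195, 113, 160.4 and 145 CPM in scopolamine replicates 1 to 4 and 174, 215, 184 and 128 CPM in sham replicates 1 to 4. The lowest library was scopolamine replicate 2 and the highest sham replicate 2, and the groups overlapped. Its mean was 153 ± 34.0 (SD, n = 4) CPM in treated mice against 175 ± 35.9 (SD, n = 4) CPM in sham mice, a log2 fold change of -0.20 (SE 0.21, edgeR adjusted p = 0.904). With a library left out this ran from -0.34 (without scopolamine replicate 1) to -0.080 (without scopolamine replicate 2).

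Alox5 (chromosome 6 from 116410077 to 116461178, minus strand) encodes the lipoxygenase that commits arachidonic acid to leukotrienes. It had 1336, 979.8, 1475 and 778 CPM in scopolamine replicates 1 to 4 and 1323, 1360.5, 1215 and 1189.6 CPM in sham replicates 1 to 4. Scopolamine replicates 1 and 3 were as high as or higher than most sham libraries, and scopolamine replicates 2 and 4 lay below all of them. The mean was 1142 ± 320.1 (SD, n = 4) CPM in treated mice against 1272 ± 82.7 (SD, n = 4) CPM in sham mice, with a log2 fold change of -0.15 (SE 0.19, edgeR adjusted p = 0.920). It was -0.30 without scopolamine replicate 3 and -0.016 without scopolamine replicate 4. Alox5ap (chromosome 5 from 149264767 to 149288153, plus strand), whose product presents the acid to the lipoxygenase, had 1559.7, 1172, 1643 and 1038 CPM in scopolamine replicates 1 to 4 and 1535, 1470.3, 1826 and 1597 CPM in sham replicates 1 to 4. The same scopolamine libraries, 2 and 4, were the low ones, and the groups overlapped. Its log2 fold change of -0.25 (SE 0.17, edgeR adjusted p = 0.851) came from 1353 ± 294 (SD, n = 4) CPM in treated mice against 1607 ± 155 (SD, n = 4) CPM in sham mice, and was -0.36 and -0.15 without the same replicates, 3 and 4.

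Ltc4s (chromosome 11 from 50236461 to 50238616, minus strand), which joins glutathione to leukotriene A4, had 1288, 1076, 1139 and 917 CPM in scopolamine replicates 1 to 4 and 1326, 1205, 1316 and 1569 CPM in sham replicates 1 to 4. Only scopolamine replicate 1 reached the sham range. The mean was 1105 ± 154 (SD, n = 4) CPM in treated mice against 1354 ± 154 (SD, n = 4) CPM in sham mice, and the log2 fold change of -0.29 (SE 0.15, edgeR adjusted p = 0.812) had an unadjusted p of 0.0697 in edgeR. By gene span Alox5ap and Ltc4s each overlap an antisense gene, Gm19719 and Gm26542. Overlap of exons was not checked and whether counting used strand is not stated, so reads of both strands may be mixed.

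Ptgs1 (chromosome 2 from 36230426 to 36252272, plus strand), the cyclooxygenase that is constitutive in many tissues, had 773, 468, 694 and 462 CPM in scopolamine replicates 1 to 4 and 684, 678, 554 and 456 CPM in sham replicates 1 to 4. Libraries of both groups started near the same low level, and the highest was scopolamine replicate 1. The mean was 599 ± 159 (SD, n = 4) CPM in treated mice against 593 ± 109 (SD, n = 4) CPM in sham mice, a log2 fold change of 0.015 (SE 0.21, edgeR adjusted p = 0.996). The sign of so small a value was not stable and ran from -0.18 to 0.14 over the alternatives. Ptgs2 (chromosome 1 from 150100031 to 150108227, plus strand), the inducible cyclooxygenase, had estimated counts of 121, 173, 165 and 43 in scopolamine replicates 1 to 4 and 8, 258, 153 and 9 in sham replicates 1 to 4. Scaled, these were 6.06, 8.10, 11.6 and 2.03 CPM in scopolamine replicates 1 to 4 and 0.303, 6.27, 3.79 and 0.269 CPM in sham replicates 1 to 4. Sham replicates 1 and 4 lay far below the other 6 libraries, and sham replicates 2 and 3 fell within the scopolamine range. Means were 6.96 ± 4.01 (SD, n = 4) CPM in treated mice against 2.66 ± 2.92 (SD, n = 4) CPM in sham mice, and the log2 fold change of 1.38 (SE 1.04, edgeR adjusted p = 0.869) did not pass the threshold. Without sham replicate 2 it was 2.25 and without sham replicate 4 it was 1.004, the ends of its range over the alternatives.

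Hpgds (chromosome 6 from 65117293 to 65144908, minus strand), the hematopoietic prostaglandin D synthase, had 276, 186, 244 and 139 CPM in scopolamine replicates 1 to 4 and 293, 302, 345 and 313 CPM in sham replicates 1 to 4. Every scopolamine library lay below every sham library, and scopolamine replicates 2 and 4 were the lowest. The mean was 211 ± 60.5 (SD, n = 4) CPM in treated mice against 313 ± 22.7 (SD, n = 4) CPM in sham mice, a log2 fold change of -0.57 (SE 0.20, edgeR adjusted p = 0.812) with an unadjusted p of 0.0175. The exact permutation test of mean log2 CPM over 70 assignments gave p = 0.0286 (two-sided), the smallest that 4 against 4 allow, and 0.725 after Benjamini-Hochberg adjustment over all genes tested. DESeq2 gave an adjusted p of 0.280. The difference therefore did not pass the threshold in either tool. Over the alternatives its log2 fold change ran from -0.76 to -0.42, always negative, with adjusted p from 0.280 to 0.999. Within sham, the libraries from 200 pg averaged 319 CPM and those from 1000 pg 308 CPM. The gene overlaps Gm17147, a processed pseudogene on the opposite strand.

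Ptges (chromosome 2 from 30889471 to 30929863, minus strand), microsomal prostaglandin E synthase-1, had estimated counts of 3, 8, 1 and 1 in scopolamine replicates 1 to 4 and 2, 51, 10 and 11 in sham replicates 1 to 4. It was at or under the floor of 3 counts in 3 scopolamine libraries and 1 sham library. In the fit without a filter its log2 fold change was -1.55 (SE 1.31, edgeR adjusted p = 0.737) and without sham replicate 2, which held 51 counts, it was -0.46, while without scopolamine replicate 2 it was -2.37. Tbxas1 (chromosome 6 from 38875404 to 39084585, plus strand), thromboxane A synthase, had 1.30, 2.99, 1.69 and 2.60 CPM in scopolamine replicates 1 to 4 and 0.909, 1.68, 0.991 and 1.61 CPM in sham replicates 1 to 4. Scopolamine replicates 2 and 4 were the highest of the 8. Means were 2.15 ± 0.784 (SD, n = 4) CPM in treated mice against 1.30 ± 0.403 (SD, n = 4) CPM in sham mice, with a log2 fold change of 0.73 (SE 0.70, edgeR adjusted p = 0.895), which was 0.36 without the sham libraries from 200 pg and 0.39 with cycles as a covariate. By gene span Tbxas1 overlaps Hipk2 on the opposite strand. Whether their exons overlap, and whether its low counts include reads of that gene, was not checked.

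Hpgd (chromosome 8 from 56294585 to 56321043, plus strand), the enzyme that inactivates prostaglandins, had 61.5, 62.2, 83.9 and 78.1 CPM in scopolamine replicates 1 to 4 and 59.7, 72.2, 42.2 and 36.3 CPM in sham replicates 1 to 4. Sham replicates 1, 3 and 4 lay below all scopolamine libraries, and sham replicate 2 lay within their range. The mean was 71.5 ± 11.3 (SD, n = 4) CPM in treated mice against 52.6 ± 16.4 (SD, n = 4) CPM in sham mice, a log2 fold change of 0.44 (SE 0.24, edgeR adjusted p = 0.815) with an unadjusted p of 0.0979 in edgeR. Among the members above 10 CPM, Hpgd and Ptgs1 alone had a positive log2 fold change, and that of Hpgd ran from 0.30 to 0.63 over the alternatives.

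**Figure D3:**
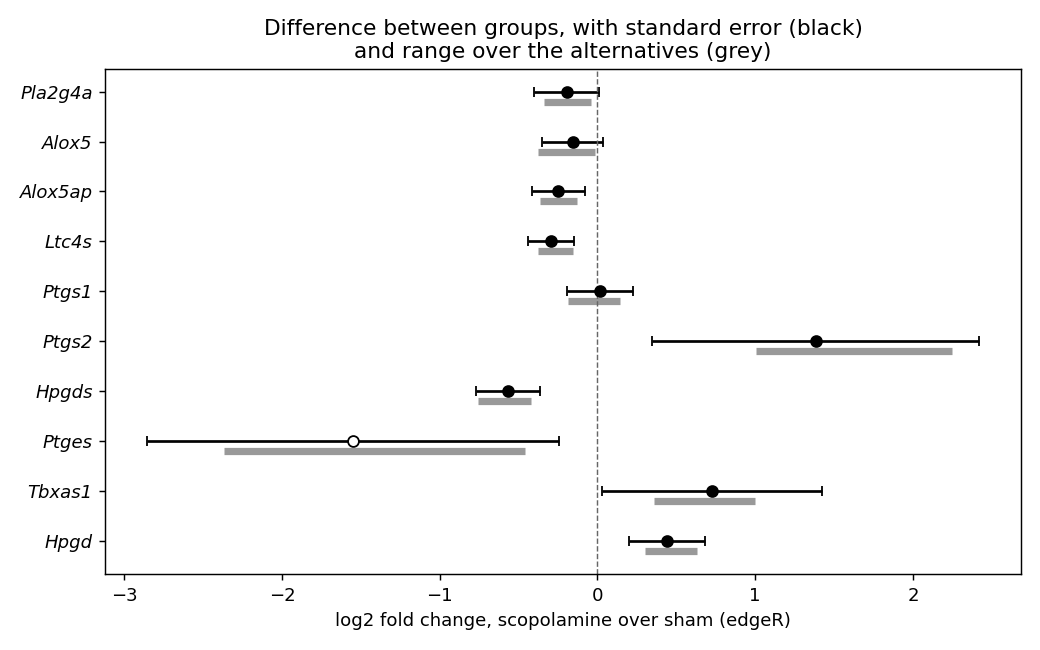
Log2 fold change of each gene (scopolamine over sham) with its standard error from edgeR in black, and the range over all alternative analyses in grey; the open circle marks Ptges, taken from the fit without a filter. Hpgds lies at -0.57, Ptgs1 at 0.015 with a range that crosses 0, and the widest errors belong to the scarce genes Ptges, Ptgs2 and Tbxas1.

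The SD of Alox5, Alox5ap, Ptgs1 and Hpgds was larger with scopolamine than in sham, as was that of the scarce Ptgs2 and Tbxas1. That of Ltc4s was 154 CPM in both groups, and those of Pla2g4a, Ptges and Hpgd were smaller with scopolamine. The mean of scopolamine replicates 1 and 3 over that of 2 and 4 was 1.60 for Alox5, 1.59 for Hpgds, 1.58 for Ptgs1, 1.45 for Alox5ap, 1.38 for Pla2g4a and 1.22 for Ltc4s. It was 1.75 for Ptgs2, 1.04 for Hpgd, 0.535 for Tbxas1 and 0.524 for Ptges. The tuft markers Dclk1 and Trpm5 had ratios of 1.41 and 1.43. This split of the treated mice was chosen after their values were seen and is a description, and the part of tuft cell content in it was not tested.

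Set against the summed tuft markers of the same library, a scale chosen after the values had been seen, Alox5 stood at 70.3 ± 6.02 (SD, n = 4) in treated mice against 73.0 ± 4.88 (SD, n = 4) in sham mice CPM per 1000 CPM of tuft markers. In CPM the SDs had been 320.1 with scopolamine and 82.7 in sham, further apart than on this scale. Ltc4s went the other way, with a wider spread relative to its mean in both groups. It stood at 70.4 ± 12.5 (SD, n = 4) in treated mice against 78.4 ± 16.2 (SD, n = 4) in sham mice. In CPM these had been 1105 ± 154 and 1354 ± 154. On this scale Hpgds stood at 15.7, 14.1, 11.2 and 11.3 in scopolamine replicates 1 to 4 and 16.2, 16.6, 18.8 and 20.4 in sham replicates 1 to 4. Its groups still did not overlap, with 13.1 ± 2.22 (SD, n = 4) in treated mice against 18.02 ± 1.98 (SD, n = 4) in sham mice, while those of the other 9 members overlapped. In the edgeR fit with libraries scaled this way, the log2 fold change of Hpgds was -0.46 and 0 members passed the threshold. This scaling moved the median log2 fold change over all genes tested from -0.011 to 0.16, so the movement was not particular to these enzymes. The values of the other negative members past the filter moved toward 0 by over 1.5 times, to -0.041 for Pla2g4a, -0.053 for Alox5, -0.13 for Alox5ap and -0.16 for Ltc4s, as did Mgst3, to -0.15, Cbr1, to -0.095, and Ptgr2, to -0.073, among the other pathway genes named. Among the positive values, that of Lta4h moved away from 0, from 0.55 to 0.85, as did those of Aloxe3, from 0.52 to 0.85, and Hpgd, from 0.44 to 0.62.

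**Figure D4:**
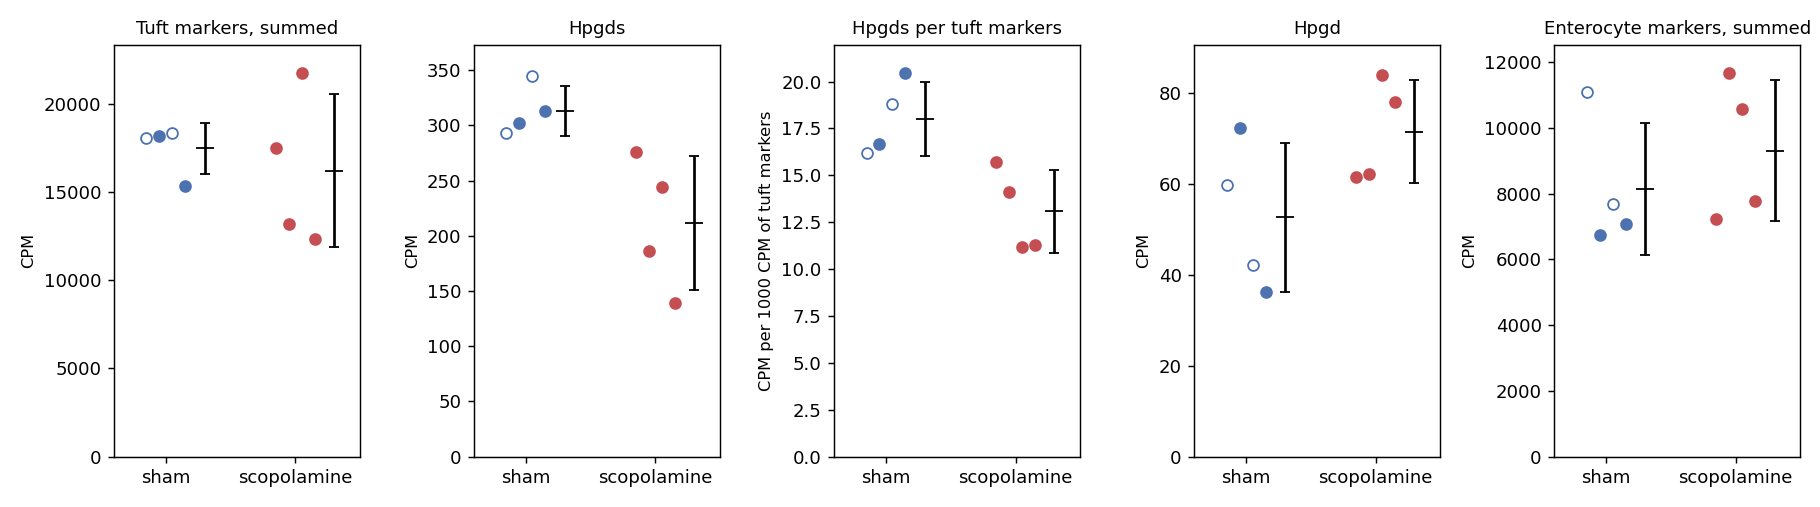
Per library, the summed CPM of 15 tuft markers, the CPM of Hpgds, Hpgds per 1000 CPM of tuft markers, the CPM of Hpgd and the summed CPM of 15 enterocyte markers, with group means and SDs in black and open circles for the sham libraries from 200 pg. Hpgds separates the groups with and without the tuft marker scale, whereas the tuft marker sums, Hpgd and the enterocyte marker sums, most of which are Fabp1 and Lgals4, overlap.

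Markers of other cell types also leaned to one group, mostly to scopolamine. Of 15 enterocyte markers 14 were higher with scopolamine and 1 lower, with a median log2 fold change of 1.49, 6 of them higher at an unadjusted p under 0.05 in edgeR (3.33% of all genes tested), and their sum was 7235 to 11659 CPM with scopolamine and 6741 to 11098 CPM in sham. Most of that sum came from Fabp1, at 3409 CPM with scopolamine and 3073 CPM in sham on average, and Lgals4, at 3940.4 and 4395 CPM, while others stood further apart, such as Slc5a1 at 129.8 and 22.8 CPM, Anpep at 104 and 19.1 CPM and Apoa4 at 94.3 and 24.9 CPM. For Slc5a1 and Apob, every scopolamine library lay above every sham library, as it did for 1.92% of all genes tested. The 10 goblet and Paneth markers were all higher by direction (sum 645 to 3536 CPM with scopolamine and 308 to 1216 CPM in sham), as were 11 of the 13 enteroendocrine markers past the filter (sum 477 to 1107 CPM with scopolamine and 179 to 1466 CPM in sham, where sham replicate 3 alone held 1466 CPM and the other sham libraries at most 286, below every scopolamine library). The 4 macrophage and monocyte markers past the filter had positive log2 fold changes (sum 23.1 to 44.9 CPM with scopolamine and 14.5 to 23.4 CPM in sham), and the 3 B and plasma cell markers past it negative ones, with sums that did not overlap (3.93 to 10.2 CPM with scopolamine and 11.9 to 22.5 CPM in sham). Of 9 lymphocyte markers past the filter, from the T cell and intraepithelial lymphocyte list, 8 were higher and 1 lower (sum 30.8 to 121 CPM with scopolamine and 2.77 to 149 CPM in sham, where sham replicate 1 alone held the highest sum and the other sham libraries at most 7.999). Both stromal and endothelial markers past the filter were lower (sum 10.01 to 14.5 CPM with scopolamine and 13.2 to 14.3 CPM in sham). None of these markers passed the adjusted threshold in edgeR, while DESeq2 called Slc5a1 (adjusted p = 0.00464), Anpep (0.0399) and, of the enteroendocrine list, Scg3 (0.0275), all higher with scopolamine, where it called 1.31% of all genes it tested in either direction. Scg3 did not pass the filter. It had 20, 54, 8 and 6 counts in scopolamine replicates 1 to 4 and 0, 1, 3 and 0 in sham replicates 1 to 4. These single markers were named after their values were seen, and the part of other cells in the values of the enzyme genes was not tested.

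Mast cells, eosinophils, platelets and macrophages are other well known sources of these enzymes, and the sort took live cells, high for the marker the methods abbreviate as EPC and positive for ZSgreen. The mast cell genes Ms4a2, Fcer1a, Tpsb2, Tpsab1 and Cma1 were listed at 0 in every library. The summed mast cell list was at most 0.608 CPM in 7 libraries and 25.2 CPM in scopolamine replicate 4. In scopolamine replicate 4 Mcpt1 had 300 counts, Mcpt2 133, Mcpt4 51, Cpa3 31 and Gata2 19. Mcpt1 had 1 count in each other scopolamine library and 0 in every sham library. The eosinophil markers Epx, Prg2 and Ccr3 were at 0 in all 8, and the platelet list summed to at most 0.702 CPM.

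Ratios within a library do not depend on how libraries are scaled, and they are given as a description. The fold of Ptgs1 over Ptgs2 counts was 57.6 to 225 with scopolamine and 108 to 2126 in sham, and Ptgs1 had more counts than Ptgs2 in every mouse although its transcripts are shorter. Hpgds over Ptges was 469 in scopolamine replicate 2 and 241, 1327 and 913 in sham replicates 2 to 4, and in the other 4 libraries Ptges had 1 to 3 counts, too few for a ratio. Alox5 over Ptgs1 was the tightest ratio, 1.69 to 2.13 with scopolamine and 1.93 to 2.61 in sham. Ltc4s over Lta4h, the branch point between leukotriene C4 and leukotriene B4, was 4.96 to 23.6 with scopolamine and 11.7 to 25.0 in sham. Ptgs1 over Hpgd, synthesis against breakdown, was 5.91 to 12.6 with scopolamine and 9.39 to 13.1 in sham. The groups overlapped in the 4 ratios without Ptges.

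**Figure D5:**
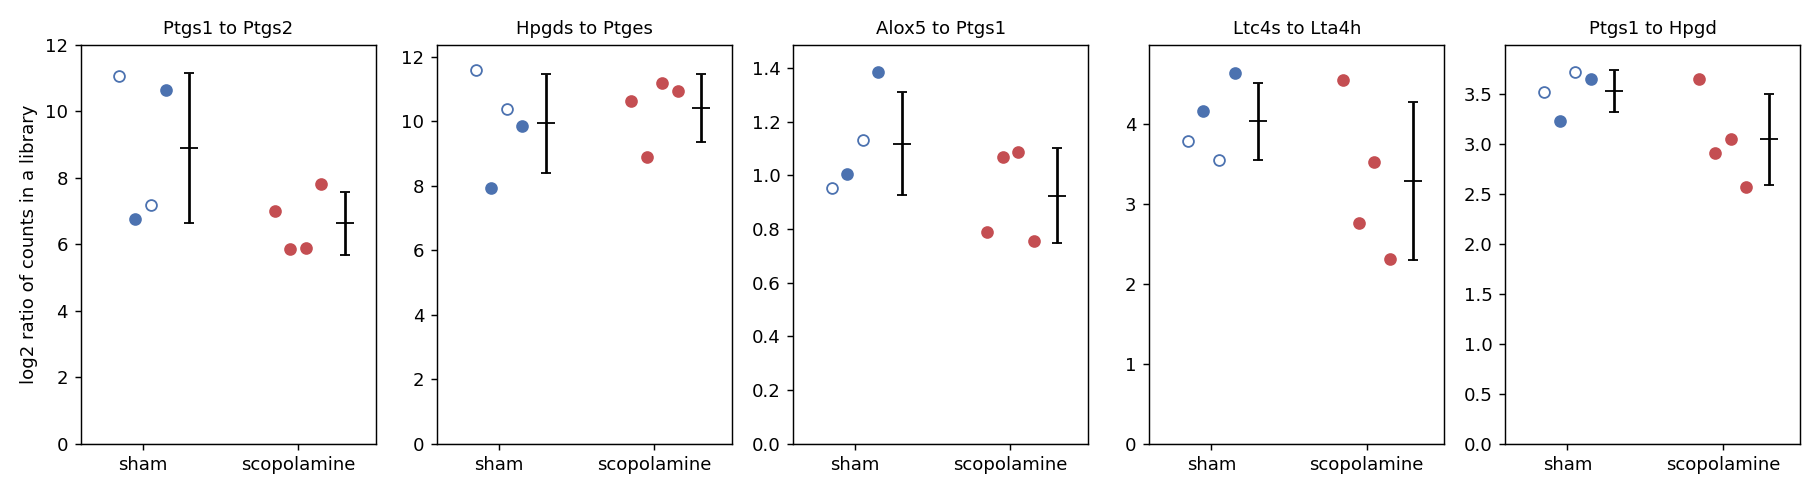
Log2 ratio of the estimated counts of 2 genes within each library (0.5 added to each count), with group means and SDs in black and open circles for the sham libraries from 200 pg. The groups overlap in the 4 ratios without Ptges, whose 1 to 3 counts in 4 libraries leave the Hpgds to Ptges values there uncertain, and the Ptgs1 to Ptgs2 ratio is widest in sham, from 6.75 to 11.1.

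Beyond the 10 members, 56 other genes of the pathway were listed, of which 50 had a count and 31 passed the filter. In edgeR 0 of the 31 passed the adjusted threshold, 2 were lower and 0 higher at an unadjusted p under 0.05 (2.66% and 3.33% of all genes tested), and by direction 20 were higher and 11 lower, with a median log2 fold change of 0.42 beside -0.011 over all genes tested. Every scopolamine library lay below every sham library for 2 of them, Pla2g16 and Cbr1, and above for 0, where all genes tested gave 1.96% and 1.92%. DESeq2 called 2, Pla2g16 and Pla2g2f, at an adjusted p under 0.1, beside 1.31% of all genes it tested.

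Among the other phospholipases A2, Pla2g16, which acts on membrane phospholipids, had the highest mean CPM (not corrected for length), with 186, 138, 149 and 132 CPM in scopolamine replicates 1 to 4 and 196, 222, 221 and 245 CPM in sham replicates 1 to 4. Its scopolamine libraries all lay below the sham libraries, and the log2 fold change of -0.55 (SE 0.15, edgeR adjusted p = 0.812) had an unadjusted p of 0.00466; DESeq2's adjusted p was 0.0605. Pla2g6, the calcium-independent enzyme, stood at 59.7 ± 18.6 (SD, n = 4) CPM in treated mice against 82.3 ± 15.9 (SD, n = 4) CPM in sham mice with a log2 fold change of -0.46 (SE 0.24, edgeR adjusted p = 0.813) that was -0.70 without scopolamine replicate 3. Pla2g2f, a secreted enzyme named because DESeq2 called it (adjusted p = 0.0645), had 15, 25, 1 and 9 counts with scopolamine and 0 in every sham library, and did not pass the filter. Of the other lipoxygenases, Alox12b and Aloxe3, enzymes of the skin barrier, had the highest mean CPM and averaged 0.475 and 0.574 CPM. The log2 fold change of Aloxe3, 0.52 (SE 1.19, edgeR adjusted p = 0.974), was 0.11 without sham replicate 3 and 0.97 without sham replicate 2.

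Mgst3, a microsomal glutathione transferase related to Ltc4s, had the highest mean CPM of the other leukotriene enzymes, not corrected for length, at 2987 ± 271 (SD, n = 4) CPM in treated mice against 3704 ± 530.1 (SD, n = 4) CPM in sham mice, with a log2 fold change of -0.31 (SE 0.14, edgeR adjusted p = 0.812). Lta4h, which makes leukotriene B4, had 54.7, 159, 98.3 and 185 CPM in scopolamine replicates 1 to 4 and 96.1, 67.1, 112 and 62.7 CPM in sham replicates 1 to 4. Its highest libraries were scopolamine replicates 4 and 2, the libraries in which Alox5 and Ltc4s were lowest, and its log2 fold change of 0.55 (SE 0.35, edgeR adjusted p = 0.833) did not pass the threshold and was 0.29 without scopolamine replicate 4 and 0.94 with cycles as a covariate. Of the other prostanoid synthases, Akr1b3, an aldose reductase that can make prostaglandin F2α, stood at 234 ± 34.6 (SD, n = 4) CPM in treated mice against 321 ± 36.8 (SD, n = 4) CPM in sham mice, a log2 fold change of -0.46 (SE 0.15, edgeR adjusted p = 0.812) with an unadjusted p of 0.0123. Cbr1, a carbonyl reductase that acts on prostaglandin E2, stood at 212 ± 10.7 (SD, n = 4) CPM in treated mice against 256 ± 17.8 (SD, n = 4) CPM in sham mice, with a log2 fold change of -0.27 (SE 0.12, edgeR adjusted p = 0.812) and groups that did not overlap. Ptgds, the other prostaglandin D synthase, was listed at 0 in all 8 libraries. Unlike Ptges, the other prostaglandin E synthase genes had counts well above the floor, Ptges2 with 80.1 ± 24.1 (SD, n = 4) CPM in treated mice against 58.1 ± 11.2 (SD, n = 4) CPM in sham mice and Ptges3 with 82.7 ± 10.2 (SD, n = 4) CPM in treated mice against 72.05 ± 12.4 (SD, n = 4) CPM in sham mice, and neither passed the threshold.

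For breakdown and transport, Ptgr2, a prostaglandin reductase, stood at 60.6 ± 20.0 (SD, n = 4) CPM in treated mice against 68.3 ± 1.63 (SD, n = 4) CPM in sham mice (-0.17 on the log2 scale, edgeR adjusted p = 0.933, but -0.36 without scopolamine replicate 1, 0.00026 without scopolamine replicate 4 and -0.46 with the mouse ID letter as a covariate), and Slco2a1, the prostaglandin uptake transporter, at 28.4 ± 6.57 (SD, n = 4) CPM in treated mice against 17.1 ± 10.5 (SD, n = 4) CPM in sham mice (0.73, edgeR adjusted p = 0.851, and 0.40 without sham replicate 3 or 1.11 without sham replicate 1). Of the receptors, Ptger4, a prostaglandin E2 receptor, had 0, 7.02, 6.28 and 16.6 CPM in scopolamine replicates 1 to 4 and 0.833, 3.74, 0.0248 and 0.836 CPM in sham replicates 1 to 4, with a log2 fold change of 2.46 (SE 1.51, edgeR adjusted p = 0.83) that was 1.70 without scopolamine replicate 4 and 3.73 without sham replicate 2. Ptger1 averaged 0.431 CPM and did not pass the filter. The leukotriene B4 receptors Ltb4r1 and Ltb4r2 averaged 1.51 and 4.44 CPM, with log2 fold changes of -2.21 and -0.40 whose sign turned without the sham libraries from 200 pg. The cysteinyl leukotriene receptors Cysltr1 and Cysltr2 stayed at or under 0.114 CPM in every library.

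The genes whose log2 CPM followed a member most closely over the 8 libraries, of 12848 compared, were Tuba1a (Pearson r = 0.99), Cfi (0.97) and Tubb4b (0.97) for Alox5. For Ptgs1 they were BC024139 (0.98), Slc35a3 (0.97) and Rabgap1 (0.94), and for Hpgd Cdc25a (0.97), Nipa1 (0.97) and Atp11b (0.96). With 8 libraries that share depth and marker levels, the highest of so many correlations are a description.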

How the data were processed

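Libraries were made from RNA of sorted ZSgreen-positive cells with a low-input cDNA kit and Nextera XT, and sequenced as 100 bp paired ends. The authors converted reads with bcl2fastq 2.20, pseudoaligned them to the GRCm38 transcriptome with kallisto 0.44.0, summed transcripts by gene with tximport and deposited a table of estimated counts, not normalized. Which annotation release was indexed, and whether strand was used, is not given in the sources used here. Rounding to whole numbers changed 0% of the values. Treatment and cell number came from the labels, and RNA input and cycles from the study's source data.

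Counts were tested with edgeR 4.0.16 in R 4.3.3 (TMM, filterByExpr, quasi-likelihood test, Benjamini-Hochberg adjusted p under 0.1), with Ptges taken from the fit without a filter. CPM divide counts by the total times the TMM factor. The exact permutation tests compared mean log2 CPM (prior count 2) over 70 assignments. Results were recomputed with DESeq2 1.42.0 and with limma-voom (limma 3.58.1); in edgeR with DESeq2's size factors or with library size alone; without a filter or with a minimum of 10 counts per library; at an adjusted p of 0.05; without the 200 pg sham libraries; with cycles, the letter of the mouse ID or cell number as covariates; and without each replicate. Scaling to the tuft markers was added after seeing the data. Scripts were tested on simulated data. With a log2 change of 1 given to 200 of 12849 genes, edgeR called 11 of these and DESeq2 48. False calls were 2 in edgeR and 67 in DESeq2. Changes of that size were thus mostly missed, and 0 members called does not exclude them.

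Coordinates are from GENCODE M21 (GRCm38), which held 34887 of the 35199 symbols. The members, gene lists and tests were chosen with earlier results of these data known. Named are the 10 members, pathway genes with an adjusted p under 0.1 or an unadjusted p under 0.05, the 2 most abundant in each role, the 3 genes most correlated with Alox5, Ptgs1 and Hpgd, and markers. Pla2g2f, Ptgds, Ptges2, Ptges3, Cysltr1 and Cysltr2 were named after their values were seen.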

Additional observations from a re-analysis of the deposited data

Results flagged for a closer look

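Ltb4r2, the low-affinity leukotriene B4 receptor, had 7.76 CPM in scopolamine replicate 3, while the other scopolamine libraries reached at most 2.99 CPM. The gap to the nearest library was 0.850 of the whole range of the group, above Dixon's critical value for 4 samples. Of the 48 groups of 4 libraries examined (members and named pathway genes), 1 stood out, and chance alone gives about 1 in 20.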

How the results depend on the processing

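No paired analysis was possible because the labels carry no replicate numbers shared between the groups. Over 24 genes and 442 comparisons with an alternative, 427 kept direction and side of the threshold and 14 turned sign; 9 of the 10 members never did. The number of all genes past the adjusted threshold, 0 in edgeR, was 190 with DESeq2, 9 without the sham libraries from 200 pg, 5 with cycles as a covariate, and 0 to 2 when each replicate was left out (1 without scopolamine replicate 4, 2 without sham replicate 1). Pathway genes called were 2 with DESeq2 (0 in edgeR), and members called stayed at 0 in all alternatives run. The log2 fold change of Ptgs1 was -0.010 without a filter, -0.011 with limma-voom, -0.18 with the mouse ID letter, and -0.14 to 0.12 with a replicate left out (negative without scopolamine replicate 1 or 3 or sham replicate 3 or 4). That of Alox12b ran from -0.025 (without scopolamine replicate 1) to 1.15 and that of Ptgr2 from -0.36 to 0.00026 (without scopolamine replicate 4) with a replicate left out. Without the sham libraries from 200 pg Ltb4r1 was 0.43 and Ltb4r2 0.32, with cycles as a covariate 0.46 and 0.32, and Ltb4r2 ran from -1.004 to 0.24 (without sham replicate 3) with a replicate left out. The mouse ID letter is not balanced (M in 3 scopolamine libraries and 1 sham library), and with it Alox5 was -0.38 and Ptgr2 -0.46. The cause was not tested. By the longest transcript, 4 members kept their place per kb. Ptges was at or under 3 counts in 4 libraries.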
